A study of Mus musculus with 6 samples.

Results

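The receptors of the common gamma chain cytokines were examined in bulk RNA-Seq of circulating donor CD8+ T cells. The set held 10 genes of 14051 in the table: Il7r, Il2ra, Il2rb, Il2rg, Il15ra, Il4ra and Il21r, which encode chains of these receptors, Il6st, which encodes gp130, and the Janus kinases Jak1 and Jak3. Il7r was chosen by its measured counts, which were low in the libraries labelled GC-treated, so its difference between the groups is given as a description with no test. The other 9 genes were set beside it for what they encode.

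The GC-treated label was carried by 3 libraries and the vehicle-treated label by another 3. In both groups B6D2F1 recipients were irradiated and given purified T cells of B6.CD45.1 donor mice, and were injected with dexamethasone, a synthetic glucocorticoid (GC), at 5 mg/kg/day, or its vehicle methyl β-cyclodextrin, from day -1 to day 5. The ages of the mice are not stated. On day 5 every recipient was injected i.v. with anti-CD45 antibody, which marks cells inside vessels, and donor CD8+ T cells that bore the mark were sorted. The BM of 2 to 3 mice was pooled for each biological group. Whether each library had its own pool is not stated, so the spread between libraries may be technical.

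IL-2, IL-4, IL-7, IL-9, IL-15 and IL-21 all signal through receptors that contain the common gamma chain, the product of Il2rg. Each receptor adds a private chain that sets its ligand: the IL-7 receptor α chain for IL-7, IL-4Rα for IL-4, IL-21R for IL-21, and IL-2Rβ with either IL-2Rα or IL-15Rα for IL-2 and IL-15. JAK1 binds the private chains and JAK3 the common chain, and together they activate STAT proteins, chiefly STAT5 after IL-2, IL-7 and IL-15. The IL-7 receptor keeps naive and memory T cells alive, is lost from most effector cells after activation and is retained on memory precursors. Glucocorticoids are known to raise Il7r in T cells.

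Values are normalized counts, the reads of a gene divided by 1 size factor per library, and are listed for replicates 1, 2 and 3 in that order. Depth was 67887570 to 76888118 reads on listed genes with the GC label and 60949593 to 64801008 with the vehicle label, and no member had fewer than 966 reads in any library. The cells carried the genes of CD8+ T cells, with Cd8a at 63285 to 93850.1 and Cd8b1 at 86287 to 109279. GC-treated 1 stood closer to the vehicle-treated libraries than to the other GC-treated ones, with a chi-square per degree of freedom over genes of 21.2 to 35.8 against vehicle-treated 1 to 3 and of 104 and 149 against GC-treated 2 and 3. GC-treated 2 lay at 62.2 and 86.6 from vehicle-treated 3 and 1, at 93.9 from GC-treated 3 and at 151 from vehicle-treated 2. GC-treated 3 lay closest to GC-treated 2. Of 11 tested target genes of the glucocorticoid receptor, 2 had positive and 9 negative log2 differences, limma called none, and 2 in each direction had an unadjusted p under 0.05. Fkbp5, a chaperone of the receptor that glucocorticoids are known to raise, was at 21148, 16401 and 14779.9 under the GC label versus 24889, 32705 and 21271 under the vehicle label, lower in every library with the GC label. Tsc22d3, another such gene and one singled out with its values known, stood at 1521, 3267 and 4689 against 2619, 4755 and 2994. Txnip had a log2 difference of -0.27 and its groups did not overlap. The genes with positive values were Dusp1, a phosphatase that glucocorticoids are known to raise, with 0.47 (standard error 0.16), and Nfkbia, an inhibitor of NF-κB singled out with its values known, with 0.31 (standard error 0.12) and every GC-treated library above the vehicle-treated ones. Most of the 11 target genes were lower with the GC label, with a median log2 difference of -0.26 against -0.0079 over all tested genes. Whether the labels match the treatments was not tested, so directions below are those of the labels and no more.

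The promoters of Il7r and Il2rg are shown because these genes had the lowest and the highest log2 difference of the 10. The sequences are the 250 bases before the start of each gene, 5′ to 3′ on the strand of the gene, from RefSeq on build GRCm38.p6, at chr15:9529877-9530126 for Il7r and chrX:101268256-101268505 for Il2rg, both on the reverse strand. Promoters were found for 9 of the 10 genes, all but Il2rb. Capitals mark every match, on either strand, to AGAACA (a single arm of the glucocorticoid response element), TGTTTAC (FOXO), TGTGGT (RUNX), CCGGAA (ETS factors of the GABP type), AGGAAG (ETS factors of the PU.1 type) or TTCNNNGAA (STAT).
Il7r: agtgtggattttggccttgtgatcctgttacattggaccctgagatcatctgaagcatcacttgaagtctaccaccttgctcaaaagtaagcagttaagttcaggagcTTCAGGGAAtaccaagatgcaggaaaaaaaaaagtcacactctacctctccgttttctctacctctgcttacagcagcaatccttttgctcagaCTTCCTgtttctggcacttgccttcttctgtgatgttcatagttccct
Il2rg: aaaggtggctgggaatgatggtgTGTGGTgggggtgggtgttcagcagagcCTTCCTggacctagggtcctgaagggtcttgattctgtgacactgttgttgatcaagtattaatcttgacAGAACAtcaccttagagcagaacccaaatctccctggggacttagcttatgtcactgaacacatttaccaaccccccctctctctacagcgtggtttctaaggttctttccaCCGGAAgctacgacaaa

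The Il7r window held 1 STAT match, at bases 109 to 117, and 1 AGGAAG match on the other strand, at bases 203 to 208. Of 32536 promoters of the same length, 7.04% held the STAT letters and 29.6% held AGGAAG. The Il2rg window held 1 match each to the RUNX, PU.1 type, glucocorticoid and GABP type letters, found in 14.0%, 29.6%, 16.0% and 12.1% of promoters. The AGAACA match was at bases 122 to 127 of Il2rg, and the Il7r window held none. Among the other promoters found, AGAACA was in those of Il2ra (log2 difference 0.10) and Jak3 (-0.059). It was not in those of Il15ra, Il4ra, Il21r, Il6st or Jak1. The full palindromic glucocorticoid response element was in neither window. These matches describe letters and are not binding sites.

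Il7r, the chain that gives the IL-7 receptor its ligand, spans 9505874 to 9530262 on the reverse strand of chromosome 15 (GRCm39, the build of all gene coordinates below) and overlaps no other gene. Its normalized counts were 1147, 1058 and 888 under the GC label. Under the vehicle label they were 2216, 2893 and 1493. The GC-treated libraries lay close together and all below the lowest vehicle-treated library, vehicle-treated 3, while vehicle-treated 2 was the highest. The means were 1031 ± 132 (SD, n = 3) and 2201 ± 700 (SD, n = 3), so that the GC mean was 46.8% of the vehicle mean. The log2 difference, GC minus vehicle on log2(normalized count + 1), was -1.05 (standard error 0.22). Fewer cells that express a gene and less RNA per cell cannot be told apart in bulk samples. Leaving out 1 library at a time moved the log2 difference from -1.30, without vehicle-treated 3, to -0.83, without vehicle-treated 2.

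**Figure D1:**
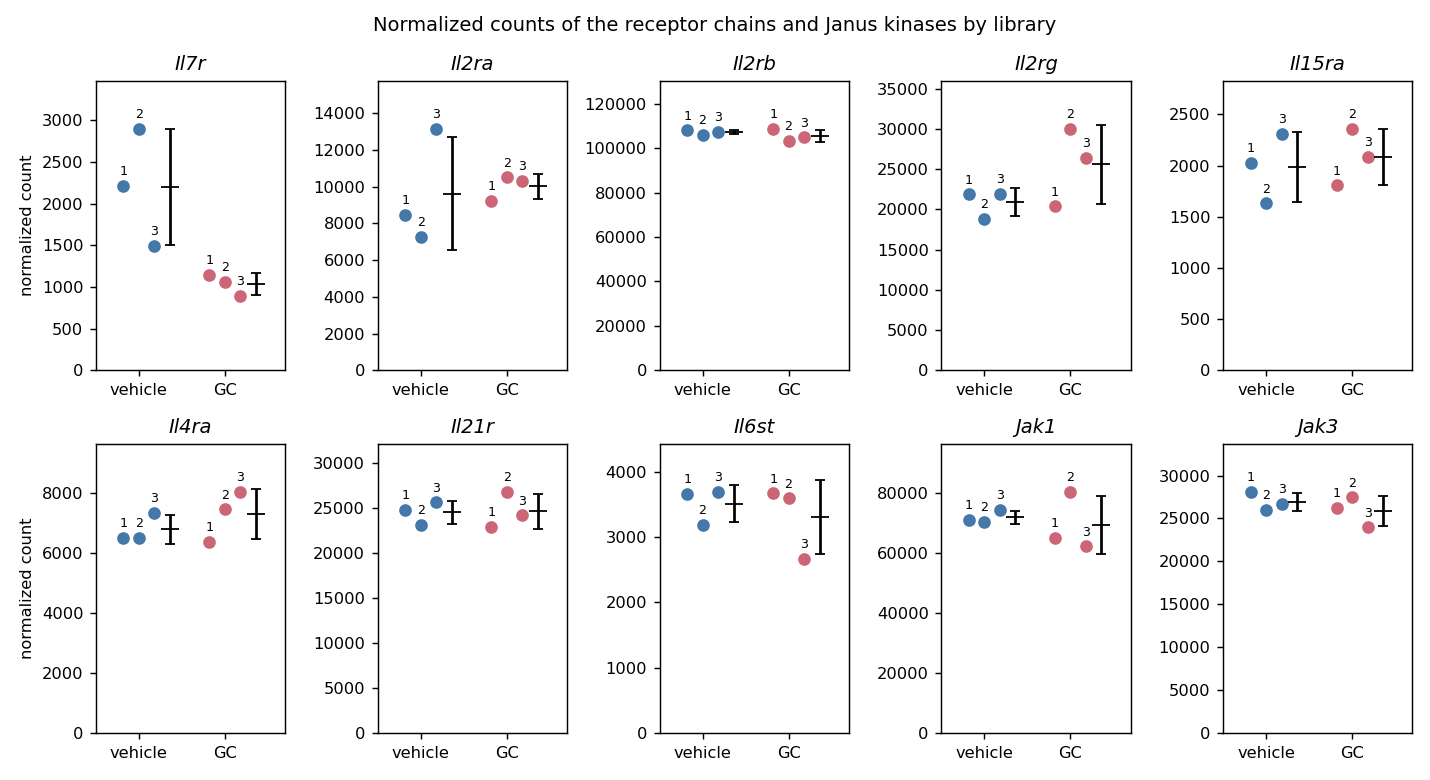
Normalized counts (vertical axes, starting at 0) of the 10 genes in each library, by label. Points are libraries numbered by replicate, and black marks with bars give the group mean with its SD (n = 3). Il7r alone has groups that do not overlap, from 888 to 1147 with the GC label against 1493 to 2893 with the vehicle label.

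Of the 10 genes, 1, Il7r, had GC-treated libraries that all lay below the vehicle-treated ones, and none had them all above. Over the 11649 genes tested, 6.4% lay all below and 6.4% all above. Since Il7r was chosen for this contrast, nothing is read from that count. Limma, a linear model fitted to every gene that moderates its variance with that of the others, called 0% of all tested genes lower and 0% higher at an adjusted p under 0.05, and 838 genes (7.19%) had an unadjusted p under 0.05, 5.07% with lower and 2.12% with higher values. Of the other 9 genes, limma called 0, with 0 at an unadjusted p under 0.05. EdgeR on recovered reads called 0, with 0 at that unadjusted p. DESeq2, which called 0.0143% of its genes lower, called 0 of these 9, with 1, Il2rg, at that unadjusted p. Among these 9, 5 had positive and 4 had negative log2 differences, with adjusted p from 0.62 to 0.99 in limma, and the groups of each overlapped.

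Of the 10 genes Il2rb varied least. It encodes the β chain that signals for both IL-2 and IL-15, and it spans 78363456 to 78395566 of chromosome 15. Its normalized counts were 108646, 103262 and 104957 under the GC label versus 108089.5, 106215 and 107362 under the vehicle label. All 6 libraries lay within a 1.05-fold range, and GC-treated 1 and vehicle-treated 1 were the highest. The log2 difference was -0.022 with a 95% interval from -0.18 to 0.14 in limma. Over the 6 libraries the SD of its log2 values was 0.028, lower than in all but 0.197% of tested genes. The SD of Il7r on the same scale was 0.66, higher than in 87.9% of tested genes, and its highest library was 3.26 times its lowest. Il7r was chosen for its difference between the groups, which widens this SD, so nothing is read from its rank. The ranks are also not matched for level, since by mean Il2rb stood above 99.7% of tested genes and Il7r above 46.1%.

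Il2rg, the common gamma chain, lies on chromosome X from 100307984 to 100311861. Its normalized counts were 20369, 29975 and 26429 under the GC label. Under the vehicle label they were 21869.6, 18864 and 21916. GC-treated 2 and 3 lay above every other library, and GC-treated 1 lay below 2 of the vehicle-treated libraries. The log2 difference was 0.28 (standard error 0.14), with a 95% interval from -0.034 to 0.59 and an adjusted p of 0.62 from limma. It was 0.43 without GC-treated 1 and 0.16 without GC-treated 2.

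The α chains of IL-2 and IL-15 are encoded side by side on chromosome 2, Il2ra from 11647618 to 11698004 and Il15ra from 11710101 to 11739128. Il2ra, the chain that gives high affinity for IL-2 and that activated T cells acquire, was at 9227, 10506 and 10309 under the GC label versus 8483, 7269.9 and 13132 under the vehicle label. The highest and the lowest library both carried the vehicle label. The log2 difference was 0.10 with a 95% interval from -0.33 to 0.53 (adjusted p = 0.85 from limma). Il15ra, which presents IL-15 to the β and gamma chains, was at 1805, 2355 and 2087 against 2024, 1629 and 2309.8, again with vehicle-treated 2 lowest. Its log2 difference was 0.073 with a 95% interval from -0.28 to 0.43 (adjusted p = 0.87 from limma).

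The private chains for IL-4 and IL-21 are also neighbours, on chromosome 7, Il4ra from 125151079 to 125182844 and Il21r from 125202601 to 125232756. Il4ra was at 6372, 7442 and 8026 under the GC label versus 6501, 6500.2 and 7326 under the vehicle label. GC-treated 1 was the lowest library and GC-treated 3 the highest. Its log2 difference was 0.099 with a 95% interval from -0.14 to 0.34 (adjusted p = 0.75 from limma). Il21r was at 22960.3, 26826 and 24214 against 24807, 23148 and 25664, with a log2 difference of 0.0058 and a 95% interval from -0.19 to 0.20 (adjusted p = 0.99 from limma). Its groups shared most of their range.

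Il6st encodes gp130, the shared chain of the IL-6, IL-27 and LIF receptors, which does not pair with the common gamma chain. The gene spans 112600604 to 112646620 of chromosome 13. Its normalized counts were 3668, 3590.2 and 2661 under the GC label versus 3656, 3191 and 3690.0 under the vehicle label. GC-treated 3 was low and the other libraries were near each other. The log2 difference was -0.099 with a 95% interval from -0.41 to 0.22 (adjusted p = 0.80 from limma).

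Neither kinase that binds these chains was called. Jak1, on chromosome 4 from 101008838 to 101122487, was at 65214, 80427 and 62267 under the GC label versus 70972, 70441 and 74354 under the vehicle label. Jak3, on chromosome 8 from 72123007 to 72143225, was at 26246, 27455 and 23944 against 28085, 25984 and 26717. In both genes GC-treated 3 was the lowest library, and the 3 vehicle-treated libraries lay within the range of the GC-treated ones for Jak1. The log2 differences were -0.062 with a 95% interval from -0.30 to 0.17 for Jak1 and -0.059 with a 95% interval from -0.24 to 0.13 for Jak3 (adjusted p = 0.83 and 0.80 from limma). Jak1 shares exonic bases with Raver2 and Jak3 with B3gnt3, each on the other strand. Il2rb, Il4ra and Il6st each share some with a long noncoding gene on the other strand, and Jak3 with Insl3 on its own strand. Strand was not marked during library preparation, so the reads of all these genes are uncertain to that extent.

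**Figure D2:**
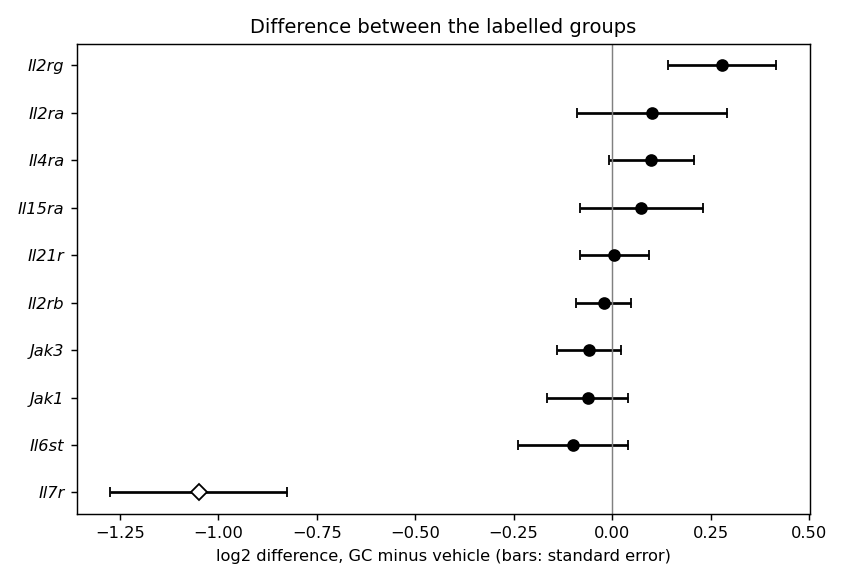
Log2 difference between the groups, GC minus vehicle (horizontal axis), for each gene. Points are limma estimates over 3 against 3 libraries and bars are standard errors. The open diamond is Il7r at -1.05, which was chosen for this contrast, and the other 9 genes lie between -0.099 and 0.28.

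The order of the libraries differed between the receptor chains. The 3 highest libraries were GC-treated 2, GC-treated 3 and vehicle-treated 3 for 4 genes, Il2ra, Il2rg, Il15ra and Il4ra, a pattern that 11.5% of tested genes share and that was noticed after the values were seen. Vehicle-treated 2, the library with the most Il7r, was the lowest for 3 genes, Il2ra, Il2rg and Il15ra, as it was for 18.1% of tested genes. GC-treated 3, the library with the least Il7r, was also the lowest for Il6st, Jak1 and Jak3, as it was for 29.5% of tested genes. As a description over 6 libraries that share depth and makeup within each, Pearson's r of the log2 values with those of Il7r was -0.72 for Il2rg, -0.67 for Il4ra, -0.62 for Il2ra and -0.56 for Il15ra. Spearman's rho was -0.77, -0.66, -0.60 and -0.60 in that order. For the other 5 genes r lay between -0.29 for Il21r and 0.41 for Jak3.

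**Figure D3:**
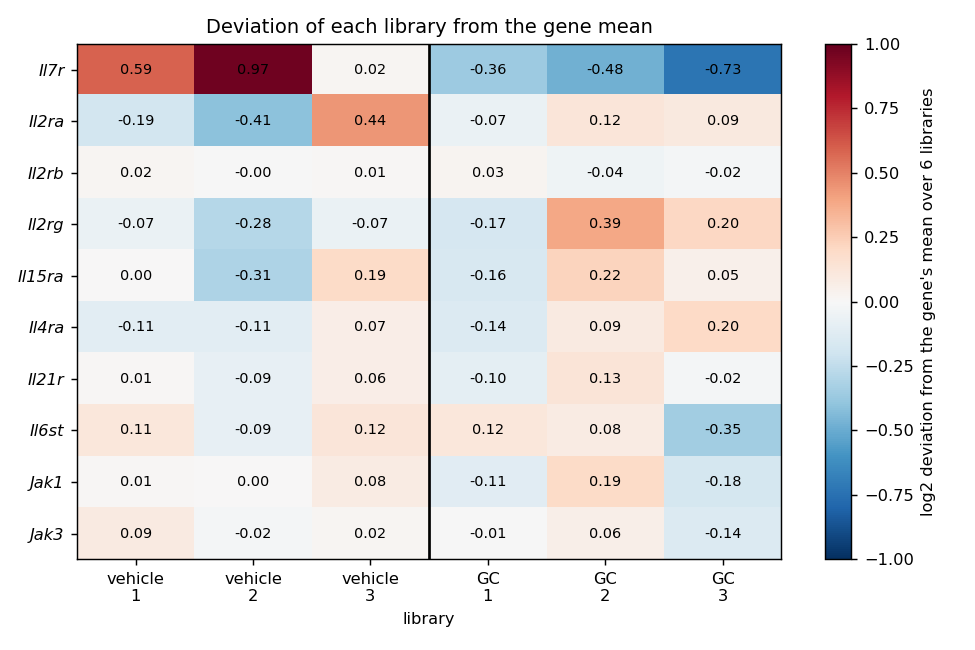
Log2 deviation of each library (columns) from the mean over 6 libraries of each gene (rows), with the value printed in each cell and red for above the mean. The Il7r row runs from -0.73 in GC-treated 3 to 0.97 in vehicle-treated 2, while the Il2rb row stays between -0.043 and 0.030.

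Levels of different genes were compared per kilobase (kb) of exon. On this scale the mean over 6 libraries was 24476 ± 469 (SD, n = 6) for Il2rb, 9735 ± 1743 for Il2rg, 7258 ± 439 for Il21r, 6522 ± 598 for Jak1 and 3392 ± 184 for Jak3. Il2ra followed at 1720 ± 353, Il4ra at 704 ± 67.1, Il15ra at 458 ± 63.5, Il7r at 347 ± 168 and Il6st at 220 ± 26.5. The ranges over libraries overlapped between Il2rg and Il21r, Il21r and Jak1, Il15ra and Il7r, and Il7r and Il6st, and not between the other neighbours in this order. With the length of the canonical transcript in place of all annotated exons, Jak1 passed Il21r and the other places in the order stayed. Of the 10 genes, Il7r thus had the lowest mean but for Il6st, and Il2rb exceeded it 70.6-fold per kb.

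The place of Il7r shifted with the label. With the vehicle label it stood at 472 ± 150 per kb (SD, n = 3), beside the 447 ± 76.9 of Il15ra. With the GC label it stood at 221 ± 28.3 per kb, beside the 213 ± 36.1 of Il6st. The ratio of Il2rb to Il7r per kb, in which the size factor of a library cancels, was 102, 105 and 127 under the GC label. It was 52.3, 39.4 and 77.1 under the vehicle label. These ratios are a description of the contrast for which Il7r was chosen.

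**Figure D4:**
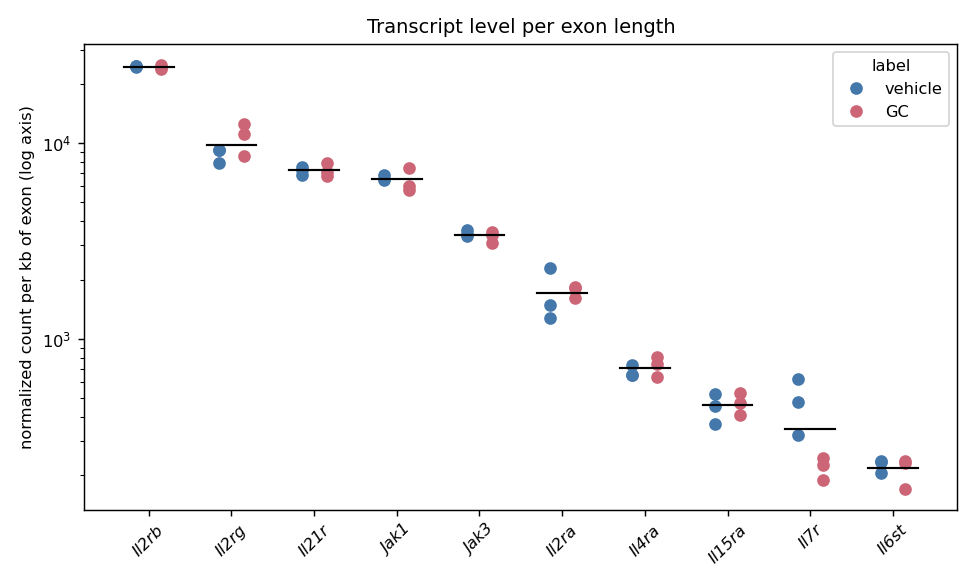
Normalized count per kb of exon on a log axis for the 10 genes, ordered by their mean over 6 libraries (black line). Points are libraries, with vehicle in blue and GC in red. Il2rb is highest at 24476 and Il7r, at 347, is the gene whose red and blue points part.

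Of 4 other chains, 3 were in the table and tested, and none was called. Crlf2, which joins the IL-7 receptor α chain to form the receptor for TSLP, was at 758, 828 and 981 under the GC label versus 944, 729.7 and 731 under the vehicle label. Il9r lay at 7.30 to 23.8. Il13ra1, a partner of IL-4Rα, was at 0, 12.9 and 0 against 18.5, 29.2 and 33.4, reads too few for a fold change. Of 8 cytokine genes, 6 were in the table and 2 passed the filter on low values, Il2 and Il21, and neither was called. Il2, the growth factor that activated T cells make, was at 83.1, 65.5 and 74.4 with the GC label and at 49.1, 59.5 and 34.4 with the vehicle label, and its log2 difference was 0.66 (standard error 0.38, adjusted p = 0.63 from limma). Il21 was at 273, 210.4 and 483 against 365, 343 and 362. Il7, also named after its values were seen, was read in GC-treated 1 and 3 alone, at 6.93 and 6.43.

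Genes that carry or dampen the signal were described by counts. Of 15 tested signal transducers, none was called higher or lower, and 4 had positive and 11 negative log2 differences. In limma 2 were lower at an unadjusted p under 0.05, as were 5.07% of all tested genes. The median log2 difference was -0.043, against -0.0079 over all tested genes, of which 51.5% had negative values. Pik3r1, a regulatory subunit of PI3 kinase, had a log2 difference of -0.40 (standard error 0.17), Ptk2b of -0.23 (standard error 0.10) and Gab2, a low gene, of -1.03 (standard error 0.46), each with an adjusted p of 0.62 from limma. Pik3cd, the highest of the list, had -0.066. Both STAT5 genes, named after their values were seen, had log2 differences of -0.043 for Stat5a and -0.14 for Stat5b. Of 18 feedback inhibitors, none was called, 9 had positive and 9 negative values, and the median was -0.0014. Socs2 was at 1311, 2326 and 2398 under the GC label versus 1031, 1017 and 1694 under the vehicle label. Its log2 difference was 0.68 (standard error 0.27, adjusted p = 0.62 from limma). Socs1 was at 2162, 3027 and 3341 against 1848, 1707 and 2609. Cish, a STAT5 target singled out with its values known, was at 5245, 9345 and 7807 against 4959, 4351 and 8045. Socs1, Socs2 and Cish were highest in GC-treated 2, GC-treated 3 and vehicle-treated 3, as were 11.5% of tested genes. The SOCS genes from Socs3 to Socs7, also on the list, did not have this pattern. Socs6 was lower in every library with the GC label, with a log2 difference of -0.27 (standard error 0.12, adjusted p = 0.62 from limma). Ptpn11 encodes the phosphatase SHP-2 and had the smallest p of the list. It was at 6814, 4045 and 3514 under the GC label versus 6860.2, 8407 and 5953 under the vehicle label. GC-treated 2, GC-treated 3 and vehicle-treated 3 were its lowest libraries. Its log2 difference was -0.61 (standard error 0.23, adjusted p = 0.62 from limma). Ptprc, which encodes CD45 and was the highest of the list, had -0.041. On the whole list 2 genes in each direction had an unadjusted p under 0.05.

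STAT5 targets and genes of survival downstream of these receptors were not called either. Of 17 tested, 11 had positive and 6 negative log2 differences, with a median of 0.12. The list mixes genes of unlike roles, such as Bcl2, Bcl2l11 and Cdkn1b, so no direction of signalling is read from this tally. Cdk6, a cell cycle kinase, had -0.55 (standard error 0.18), Pim2, a survival kinase, 0.31 (standard error 0.16) and Bcl6, a transcriptional repressor, -0.38 (standard error 0.20), each with an adjusted p of 0.62 from limma. Id2, a transcriptional regulator and the highest of the list, had 0.25 (standard error 0.18). Bcl2, a survival factor that IL-7 is known to raise, was singled out with its values known. It was at 4545, 7081 and 4818 under the GC label versus 3998, 4849 and 5743 under the vehicle label, so its groups overlapped. Of 7 tested gp130 partners and cytokines, none was called. Il11ra1 had a log2 difference of -0.79 (standard error 0.42), Lif of 0.39 (standard error 0.22), and Il27ra, the highest, had a log2 difference of 0.078.

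Transcription factors that are linked to Il7r held no call in either direction. Of 19 tested, 4 had positive and 15 negative log2 differences, with a median of -0.12. Klf2, a quiescence factor, had -0.60 (standard error 0.20), Ikzf1 -0.36 (standard error 0.15) and Notch1 -0.46 (standard error 0.21), each with an adjusted p of 0.62 from limma. Ets1, the highest of the list, was at 59359.7, 57662 and 43989.6 under the GC label versus 66070.2, 66777 and 58680.4 under the vehicle label, and GC-treated 1 lay above vehicle-treated 3. Foxo1, which is known to drive Il7r and was named after its values were seen, had -0.10. Of 16 genes of memory precursors, 2 had positive and 14 negative values, with a median of -0.10. Tcf7, Lef1, Klf2, Bach2 and Foxo1, all negative, are on this list and on that of the transcription factors, so these tallies share genes. Of 14 genes of terminal effectors 9 had positive and 5 negative values, with a median of 0.20. Over all tested genes 51.5% had negative values. Neither the memory precursor list nor the terminal effector list held a called gene. S1pr1 and Klf2, with log2 differences of -0.42 and -0.60, had the smallest p of the first list, followed by Cd28 with -0.23, and its highest gene Cxcr3 had 0.045. The authors reported S1pr1 as increased with GC treatment in their RNA-Seq of these cells, the other direction. In the second list Ifng, with 0.49 (standard error 0.16, adjusted p = 0.62 from limma), had the smallest p, followed by Prdm1 with -0.59 and S1pr5 with 1.34, and its highest gene Gzmb had 0.29.

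The genes most like Il7r over the 6 libraries were found by Pearson's r of log2 values among 9673 tested genes with a mean of at least 100. The first 8 were Zfp760, Rab27a, Il1rl2, Cytip, F2rl1, Gch1, Pdcd4 and Usp20, with r from 0.997 for Zfp760 down to 0.977 for Usp20. Their log2 differences ran from -0.94 for F2rl1, a receptor for proteases, to -0.17 for Cytip, a regulator of T cell adhesion. Zfp760 followed Il7r library by library, at 227, 225 and 198 under the GC label versus 362, 442 and 266 under the vehicle label. Rab27a, which docks cytotoxic granules, kept the same order of libraries at a smaller span, from 6910 to 9565. Of the 9673 genes, 25 had r over 0.95. The 8 were picked for following Il7r, itself chosen as low with the GC label. Their negative differences and library order thus came with the choice. The highest r among many genes over 6 libraries is a description, and shared regulation was not tested.

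Other cells that the samples may have held were described by their markers. The 10 genes that mark CD4 T cells were all in the table, and each had a negative log2 difference, with a summed normalized count of 12650.3 to 13395 with the GC label and 13533 to 15877 with the vehicle label. Cd4 itself was at 86.3 to 164 and 97.1 to 178, and the highest gene, Icos, had a log2 difference of -0.12. Icos, at 6489 to 8249 over all libraries, and Ctla4, at 3267 to 4524, held the largest parts of the sum. Whether such reads came from CD4 T cells or from the sorted CD8+ T cells cannot be told apart in bulk samples. Tnfsf8, at 274, 207 and 248 under the GC label versus 515, 584 and 362 under the vehicle label, and Cd40lg, at 154, 70.5 and 56.1 versus 193, 265 and 162, were lower in every library with the GC label. Their log2 differences were -0.98 (standard error 0.23) and -1.24 (standard error 0.40), each with an adjusted p of 0.62 from limma, and that of Ctla4 was -0.25. Of 12 genes of the B lineage, 6 were in the table, with sums of 1256 to 1754 and 1274 to 1688. Of 9 genes of innate lymphoid and NK cells, 8 were in the table, with sums of 13718 to 15672 and 15398 to 17915. Eomes, at 3866 to 4978, is also on the list of memory precursors, while Ncr1 stood at 13.9 to 38.7, so the same limit holds for this list. Of 14 monocyte and macrophage genes 11 were in the table, with sums of 1973 to 2657 and 2811 to 2944. Of these 11, 2 had positive and 9 negative log2 differences, with a median of -0.096. Cd163, a macrophage receptor, had a log2 difference of -1.43 (standard error 0.24, adjusted p = 0.62 from limma) with groups that did not overlap. Adgre1 had 1.32 (standard error 0.69, adjusted p = 0.62 from limma), and its groups overlapped. Of 8 erythroid genes 6 were in the table, with sums of 307 to 378 and 407 to 818, and Hba-a2, an α globin, had -1.06 (standard error 0.30). Of 12 neutrophil genes 9 were in the table, with sums of 1745, 12366 and 8438 under the GC label versus 553, 351 and 3955 under the vehicle label. The neutrophil sum was highest in GC-treated 2, GC-treated 3 and vehicle-treated 3, as were Il2ra, Il2rg, Il15ra and Il4ra. The part of these cells in the values of the receptor genes was not tested.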

How the data were processed

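Reads had been aligned by the authors with STAR (GRCm39, Gencode annotation), assigned to genes with summarizeOverlaps and scaled with DESeq2. The deposited table gives a normalized signal for 14051 symbols, the counts divided by 1 size factor per library. All values were whole multiples of 1 read within 0.001, so reads were recovered. The main test was limma 3.58.1 with its trend option on log2(value + 1). It was tested on simulated data. Genes entered if 3 or more libraries reached a value of 10, which left 11649, and p-values were Benjamini-Hochberg adjusted and called under 0.05. EdgeR 4.0.16 and DESeq2 1.42.0 in R 4.3.3 on recovered reads were alternatives, beside other scalings, filters and pseudocounts, the replicate block and leaving out each library. Log2 differences are GC minus vehicle. Coordinates and exon lengths are from Gencode M39 on GRCm39.

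Groups were taken from the sample labels. The members and lists were chosen with earlier results of these data known. The naming rule took all members, up to 3 genes per list with the smallest p and its highest gene, the first genes of marker lists, and the 8 genes with the highest r with Il7r. Of marker lists other than that of CD4 T cells only some of these are given. Stat5a, Stat5b, Il7, Cish, Bcl2, Foxo1, Tsc22d3 and Nfkbia fall outside the rule and were added with their values known. The same holds for Bcl2l11, Cdkn1b and the SOCS genes from Socs3 to Socs7. Amino acid sequences were not used here.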

Additional observations from a re-analysis of the deposited data

How the results depend on the processing

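Limma called 0 genes lower, where DESeq2 called 2 and limma without the trend called 1. No other setting except the removal of a library called any. Of the 10 genes the DESeq2 count holds 1, Il7r, which is no test of that gene because it was selected on these counts. With each library left out in turn there were 0 to 43 genes called lower and 0 to 2 called higher, with 43 and 2 without GC-treated replicate 1, and 0 to 0 of the 10 genes. For these changes the cause was not tested. With the replicate block 0 genes were called in each direction. Deviations of same-numbered libraries correlated at 0.063, -0.14 and 0.13, and such values cannot show whether these libraries were handled together. The labels give them only a number in common. Of 144 alternative values for the 9 genes other than Il7r, 137 kept their sign and 7 turned, all 7 when 1 library was left out. These were Il2ra at -0.078 and Il15ra at -0.063 and Il21r at -0.036 without vehicle-treated replicate 2, Il15ra at -0.020 and Il21r at -0.056 without GC-treated replicate 2, and Il6st at 0.050 and Jak1 at 0.010 without GC-treated replicate 3. The ranges over the left-out libraries were -0.078 to 0.35 for Il2ra, -0.063 to 0.19 for Il15ra, -0.056 to 0.056 for Il21r, -0.18 to 0.050 for Il6st and -0.17 to 0.010 for Jak1. Il7r had a negative value under all 16 settings, from -1.09 to -1.05 when all libraries were kept, a sign that its choice fixes in part. With 3 libraries against 3, intervals such as that of Il2ra leave differences in either direction.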
